A study of Homo sapiens with 24 samples.

Results

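HBG1 and HBG2 encode the 2 γ-globin chains of fetal hemoglobin. They lie side by side in the β-globin cluster on chromosome 11, and their binding by TR4 and BCL11A was read from CUT&RUN peak lists of the erythroid line HUDEP-2. All peaks that overlapped either gene record, or the 2 kb on either side of it, were taken in all 24 libraries. This gave 21 peaks of 379487 in the lists as a whole: 13 in the window of HBG1 and 8 in that of HBG2.

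The cluster holds its genes in the order of their use in development, and γ-globin gives way to adult β-globin around birth. BCL11A is a zinc finger repressor known for silencing γ-globin in adult erythroid cells. TR4, encoded by NR2C2, is an orphan nuclear receptor that binds DNA repeats with its partner TR2 and is also described as a γ-globin repressor. HUDEP-2 is an immortalised human erythroid progenitor line that makes mainly adult hemoglobin. CUT&RUN uses an antibody to bring a nuclease to a chromatin protein, so that the DNA around the protein is cut free and sequenced.

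Every library came from 1 of 3 gene-edited HUDEP-2 clones, all grown alike with SCF, EPO, dexamethasone and doxycycline and given no further treatment. Clone T carries TR4 with a C-terminal FLAG and MYC tag, clone B carries BCL11A with an HA and MYC tag, and clone TB carries both changes. Each genotype is a single clone, so the tags and the clone cannot be told apart. MYC and TR4 antibodies in clone T, MYC and HA antibodies in clone B, and MYC, HA and TR4 antibodies in clone TB gave 7 groups of 3 libraries, with 1 IgG library per clone as background. The labels do not state that the 3 libraries of a group are separate cultures. All p-values take single libraries as units, and the variation between those libraries may be technical.

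List length ran from 4621 to 31432 peaks in the 21 target libraries and from 2036 to 4828 in the 3 with IgG. Read depth is unknown. Each peak has a fold enrichment and a −log10 q-value that are the authors' own. Both describe a peak within its list, and folds were tested only as ratios of 2 peaks of the same list.

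Peaks at the γ-globin genes appeared in 8 libraries, and in each of these at both genes. These were the 3 HA and the 3 MYC libraries of clone TB, HA replicate 1 of clone B and MYC replicate 1 of clone B. The other HA and MYC libraries of clone B, the 6 libraries of clone T with MYC or TR4 antibody, the 3 TR4 libraries of clone TB and the 3 IgG libraries had no peak in either window. HBG1 (GRCh38, chromosome 11, 5248269 to 5249857) and HBG2 (5253188 to 5254781) run on the minus strand, so their 5′ ends are at 5249857 and 5254781, which lie 4924 bases apart. Of the 21 peaks, 16 lay at a 5′ end, 1 per gene and library, and 5 lay beyond the 3′ end of HBG1. Whether a peak covers an exon, an intron or a UTR is not given here, since the gene table holds only the start and end of each record.

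**Figure D1:**
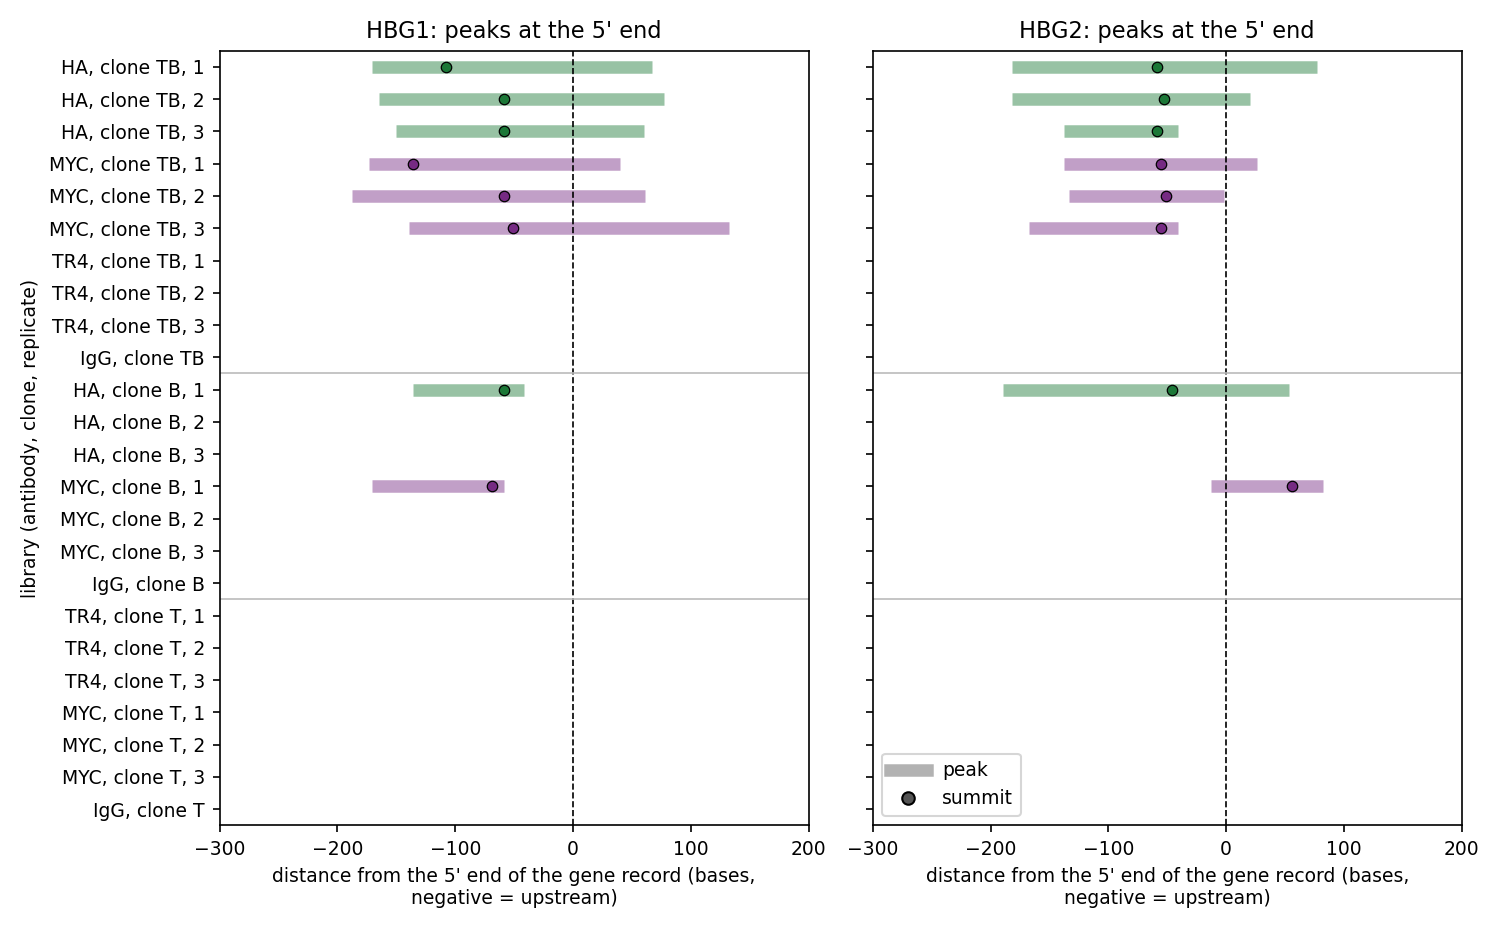
Peaks (bars) and their summits (points) around the 5′ ends of HBG1 and HBG2 in each of the 24 libraries, with the distance from the 5′ end in bases on the x axis (negative is upstream), green for HA, purple for MYC and orange for TR4 antibody. Bars appear in 8 libraries, and 15 of the 16 summits lie upstream of the dashed line.

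The 5′ peaks covered the promoter-proximal stretch of each gene. At HBG1 they spanned 188 bases upstream to 132 bases downstream of the 5′ end, and the stretch from 136 to 59 bases upstream (5249916 to 5249993) lay in the peak of all 8 libraries. At HBG2 they spanned 189 bases upstream to 82 downstream, and the stretch from 133 to 41 bases upstream (5254822 to 5254914) lay in 7 of the 8 peaks. Peak widths were 95 to 272 bases at HBG1 and 96 to 260 at HBG2. At HBG1 the peak reached into the gene record in all 6 clone TB libraries and in neither clone B library, where both narrow peaks ended upstream of it. HBG2 showed no such split, since 3 of the 6 clone TB peaks and both clone B peaks reached into the record.

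Most summits lay 46 to 69 bases upstream of the 5′ end. At HBG1 the summit lay at 59 bases upstream, on the same base, in HA replicates 2 and 3 and MYC replicate 2 of clone TB and in HA replicate 1 of clone B. It lay 108 bases upstream in HA replicate 1 of clone TB, 136 in MYC replicate 1, 51 in MYC replicate 3, and 69 in MYC replicate 1 of clone B. At HBG2 the 6 clone TB summits lay between 59 and 51 bases upstream, the HA summit of clone B 46 upstream, and the MYC summit of clone B 56 bases inside the gene. The clone TB summits of HBG2 thus sat within 8 bases of each other, while those of HBG1 were spread over 85 bases.

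No difference between HA and MYC summits of clone TB passed the test. At HBG1 the mean position was −75.3 ± 28.3 bases with HA and −82.0 ± 46.9 with MYC (SD, n = 3 each; exact permutation test, two-sided, p = 1.0). At HBG2 it was −57.0 ± 3.46 with HA and −53.7 ± 2.31 with MYC (SD, n = 3 each; exact permutation test, p = 0.3, where the smallest possible is 0.1). Within a library the HBG1 summit lay farther upstream than that of HBG2 on average (difference −34.8 ± 46.6 bases, SD, n = 8). It was farther upstream in 6 libraries, equal in 1 and nearer in 1 (exact sign-flip permutation test, two-sided, p = 0.0312). This did not pass after adjustment over the 5 tests on summits and folds (adjusted p = 0.156, exact permutation test), and 3 libraries carry most of it, with differences of −125 (MYC replicate 1 of clone B), −81 (MYC replicate 1 of clone TB) and −49 bases (HA replicate 1 of clone TB).

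With the HA antibody in clone TB, the γ-globin peaks were among the stronger ones of each list. HBG1 had fold enrichments of 17.2, 19.8 and 18.4 in HA replicates 1 to 3, and HBG2 of 25.9, 17.7 and 16. Ordered by −log10 q, HBG1 stood in the top 12.8%, 9.2% and 5.36% of the list and HBG2 in the top 4.44%, 12.3% and 7.93%. The highest −log10 q of all 16 peaks was 57.8, at HBG2 in HA replicate 1.

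The MYC antibody in clone TB, which can reach both tagged proteins, placed the same peaks lower in its lists, from the upper part in replicate 2 to the lower part in replicate 3. HBG1 had folds of 9.20, 12.1 and 6.10 in MYC replicates 1 to 3, and HBG2 of 9.45, 11.8 and 7.19. Their place in the list was the top 49.7%, 32.0% and 76.0% for HBG1 and the top 49.1%, 34% and 65.0% for HBG2. Within clone TB, the HA and MYC ranges of list position did not overlap at either gene. How many other peaks show the same was not counted, and the 2 genes are not independent measurements. The lists also differ in length. Their median −log10 q was 10.9, 9.55 and 8.08 in HA replicates 1 to 3 and 12.4, 12.3 and 11.7 in the MYC replicates. The same −log10 q thus stands higher in an HA list, and these ranks are only a description.

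In clone B the peaks were weak where they were found at all. HA replicate 1 gave folds of 4.77 at HBG1 and 8.23 at HBG2, in the top 88.5% and 57.1% of its list. MYC replicate 1 gave 5.42 and 6.84, in the top 80.6% and 70.6%. The HBG1 peak of HA replicate 1, with a −log10 q of 3.84, was the weakest of the 16, where the lowest value in any list was 2.00.

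No difference in fold between HBG1 and HBG2 of the same library passed the test. The log2 ratio of HBG1 to HBG2 was −0.20 ± 0.36 (SD, n = 8), above 0 in 3 libraries and below 0 in 5 (exact sign-flip permutation test, two-sided, p = 0.172, adjusted p = 0.43 over the 5 tests). The single ratios ran from 0.58 in HA replicate 1 of clone B to 1.15 in HA replicate 3 of clone TB. The 2 genes are near-identical copies, and no source used here says how reads that match both were placed, so their peaks are not independent measurements.

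**Figure D2:**
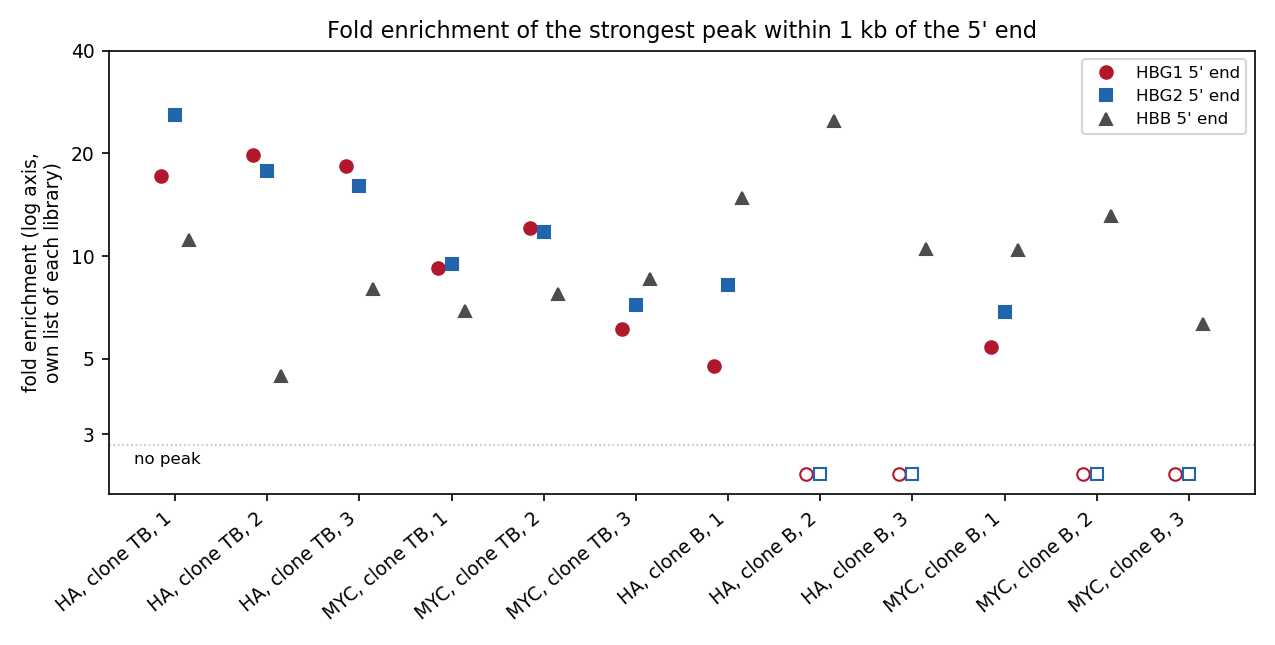
Fold enrichment (log axis) of the strongest peak within 1 kb of the 5′ ends of HBG1 (red circles), HBG2 (blue squares) and HBB (grey triangles) in the 12 HA and MYC libraries of clones TB and B, with open symbols where no peak was listed. In clone TB the γ-globin points lie above HBB in 5 of 6 libraries, and in clone B below it, or absent, in all 6.

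To compare the proteins, 9 BCL11A-directed libraries (HA and MYC in clone B, HA in clone TB) were set against 9 TR4-directed ones (MYC and TR4 in clone T, TR4 in clone TB). MYC libraries from clone TB were set aside, as both proteins carry that epitope there. Of the BCL11A-directed libraries 5 of 9 had a peak at each gene, and of the TR4-directed ones 0 of 9 (p = 0.0294, two-sided Fisher's exact test). This was not called over the 19862 protein-coding genes tested (adjusted p = 0.202, Benjamini-Hochberg over Fisher's exact tests). In this comparison 5.52% of genes were called higher in BCL11A-directed libraries and 0.302% higher in TR4-directed ones, and 13.7% had an unadjusted p at or below that of HBG1 in the BCL11A direction. The balance of the calls turned over with lists of equal length (the 4621 strongest peaks of each), where 3.19% were called higher in BCL11A-directed and 4.76% higher in TR4-directed libraries.

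TR4-directed lists were also shorter. The longest of them held 14924 peaks, and the shortest list with a γ-globin peak held 15163, so the absence of a TR4 peak and a short list cannot be told apart by count. With lists of equal length, both genes kept a peak in the 3 HA libraries of clone TB and had none elsewhere among the 18 (p = 0.206, Fisher's exact test). The difference was 3 libraries of 7 against 0 of 9 for each gene when both clone B libraries numbered 1 were left out (Fisher's exact test, p = 0.0625, adjusted p = 0.347). HA and MYC libraries of clone B with the same number had peaks missing or present together over all genes (correlation of deviations from group means 0.2, 0.29 and 0.456 for numbers 1 to 3), so they may not be independent. Counted as 1 library where either antibody gave a peak, they left 4 of 6 against 0 of 9 (adjusted p = 0.1, Fisher's exact test).

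Within clone TB the split by antibody was complete. HA gave a peak at each gene in 3 of 3 libraries and the TR4 antibody in 0 of 3 (Fisher's exact test, p = 0.1, the smallest possible), a split that 5.94% of genes showed. The MYC antibody gave 3 of 3 in clone TB and 0 of 3 in clone T, where only TR4 is tagged (Fisher's exact test, p = 0.1, the smallest possible), which 7.49% of genes showed. This split was lost with lists of equal length, where neither gene had a peak in any MYC library of either clone. The TR4 antibody found no peak in either window in clone T or clone TB, as for 46.5% of genes. None of these comparisons passed after adjustment over all genes (adjusted p = 1.0 for each, Fisher's exact test).

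Peaks at γ-globin were found in more libraries of clone TB than of clone B, a difference that did not pass the test. With both antibodies combined, all 6 libraries of clone TB and 2 of 6 of clone B had a peak at each gene (Fisher's exact test, p = 0.0606, adjusted p = 1.0). Those 2 are both numbered 1, and same-numbered HA and MYC libraries of clone B may not be independent. The unadjusted p-value may therefore be too small. In 0.589% of genes the difference in this direction was as large by this test. With each antibody alone it was 3 of 3 against 1 of 3 (Fisher's exact test, p = 0.4), matched or exceeded in 2.31% of genes for HA and 3.14% for MYC. With lists of equal length it was 3 of 3 against 0 of 3 for HA, 0 of 3 against 0 of 3 for MYC and 3 of 6 against 0 of 6 for both combined (Fisher's exact test, p = 0.1, 1.0 and 0.182). No gene was called in any of these 3 comparisons by Fisher's exact test, and 95 genes had an unadjusted p under 0.05 in the combined one. The counts rested on the window. Within the gene record alone HBG1 had 6 of 6 against 0 of 6 (Fisher's exact test, p = 0.00216, adjusted p = 1.0) and HBG2 3 of 6 against 2 of 6 (Fisher's exact test, p = 1.0). How many genes split like HBG1 in that window was not counted. The HBG1 split arose because the narrow clone B peaks (95 and 113 bases) ended upstream of the record. For HBG1 with 5 kb on either side, which takes in the BGLT3 peaks, it was 6 of 6 against 5 of 6 (adjusted p = 1.0, Fisher's exact test).

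**Figure D3:**
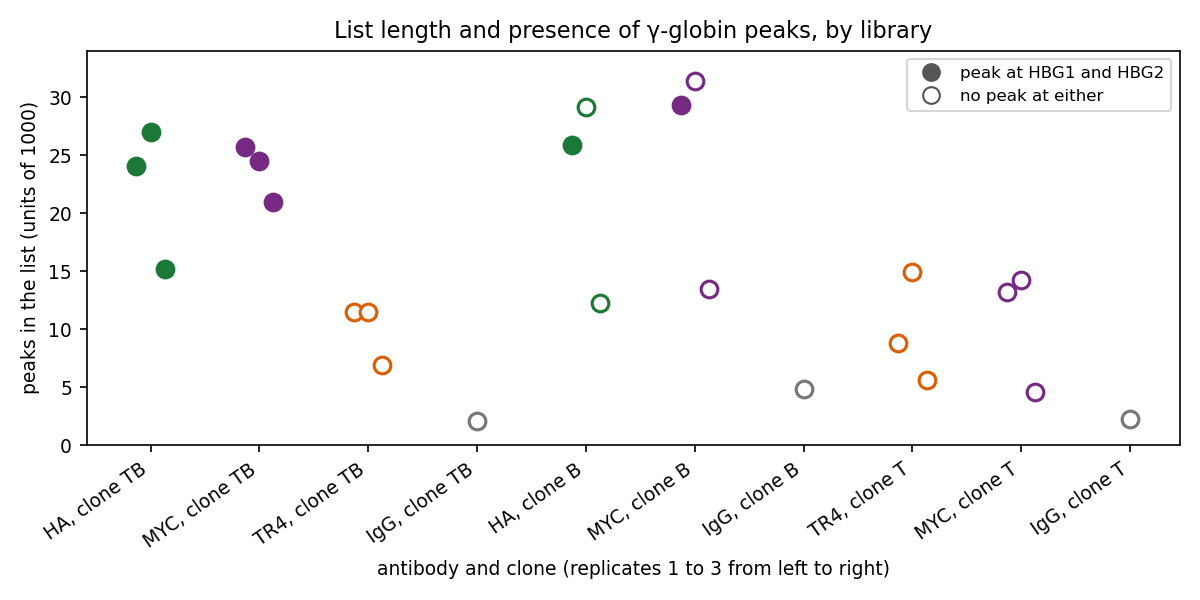
Number of peaks in each list (in units of 1000) by antibody and clone, with filled points for libraries that had peaks at HBG1 and HBG2 and open points for those with none. In clone B the longest list, MYC replicate 2 with 31432 peaks, is open, while HA replicate 3 of clone TB with 15163 is filled.

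List length did not separate the clone B libraries numbered 1, which had the peaks, from those numbered 2, which had none. The 4 without a γ-globin peak held 12284 to 31432 peaks, and the longest of all 24 lists was among them. Those numbered 2 held 31432 (MYC) and 29178 (HA), against 29363 (MYC) and 25850 (HA) for number 1. Those numbered 3 held 13429 (MYC) and 12284 (HA), fewer than the shortest list with a γ-globin peak (15163). For number 3 a missing peak and a short list cannot be told apart. Both clone B libraries that had the peaks carry the replicate number 1. Over all 79570 merged regions (peaks of all lists joined where they shared a base), 886 had a peak in both clone B libraries numbered 1 and in no other HA or MYC library of that clone, 1828 in both numbered 2, and 43 in both numbered 3. Of the 8922 regions with a peak in all 6 HA and MYC libraries of clone TB, 66.0% had one in all 6 of clone B and 3.28% in at most 2. The γ-globin regions belong to that 3.28%.

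Beyond the 3′ end of HBG1 there was a second, weaker site. Its 5 peaks had summits 516 to 599 bases past the end of the record (5247670 to 5247753). They came from HA replicates 1 and 2 and MYC replicates 1 and 2 of clone TB and from HA replicate 1 of clone B. The folds in clone TB were 4.58 and 5.15 with HA and 4.03 and 7.53 with MYC, and 5.45 with HA in clone B. The −log10 q was 2.92 and 3.90 with HA and 2.07 and 8.41 with MYC in clone TB, and 4.44 in clone B. The lowest value in any list was 2.00, so most of these calls were near the threshold. They stood in the top 65.7% (MYC replicate 2 of clone TB) to 98.9% (MYC replicate 1) of their lists. In the 4 clone TB libraries the site was weaker than the 5′ peak of HBG1. In HA replicate 1 of clone B it was the stronger of the pair, at 5.45 against 4.77. No peak lay at the matching place beyond HBG2.

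Along the cluster, HBBP1 had peaks in the same set of libraries as γ-globin and HBB did not. HBBP1, a β-like pseudogene between the fetal and adult genes, carried a 5′ peak (within 1 kb) in exactly the 8 libraries with γ-globin peaks, with folds of 9.78 to 22.5. HBB, the adult β-globin gene, had a peak within 1 kb of its 5′ end in 12 libraries, all HA and MYC libraries of clones TB and B. BGLT3, a noncoding RNA gene next to HBG1, had a peak in that window in 10. These included 5 of the 6 HA and MYC libraries of clone B but neither replicate 3 library of clone TB. The BGLT3 record is only 993 bases long, and the HA and MYC summits lay 770 to 788 bases inside it. They were thus nearer its 3′ end. HBD, of the minor adult chain, had a peak within 1 kb of its 5′ end in 3 libraries and HBE1, of the embryonic chain, in 1. Of these neighbours BGLT3 alone had a TR4-directed peak, in TR4 replicate 2 of clone T (fold 4.80).

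**Figure D4:**
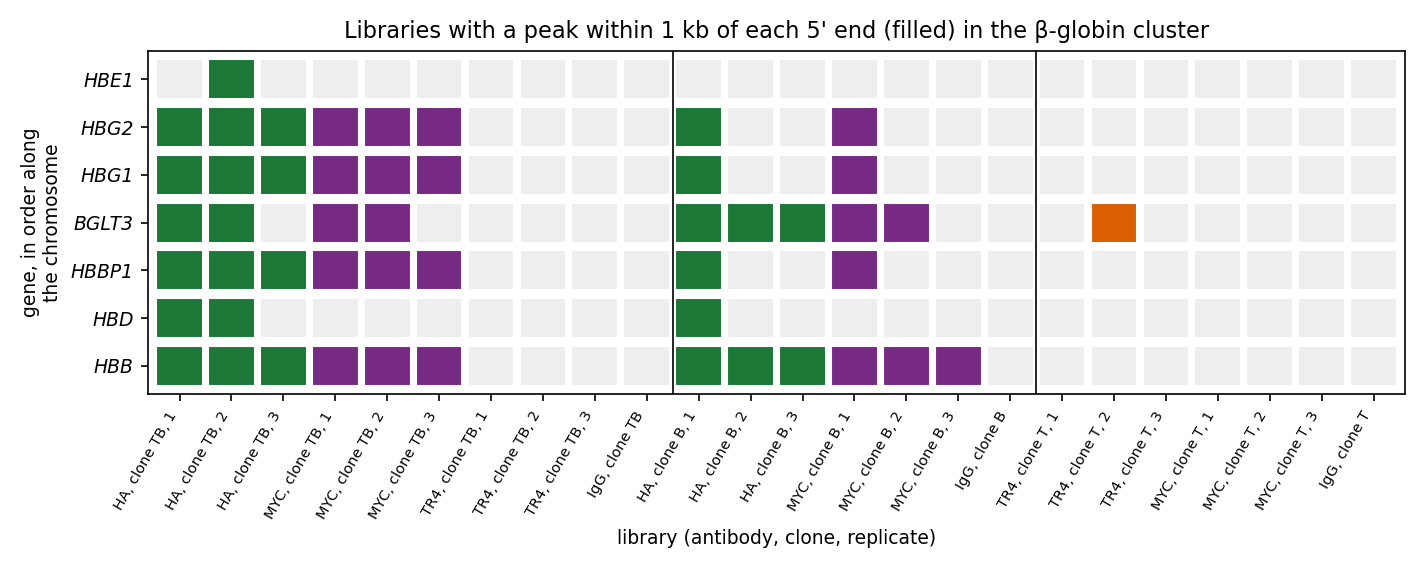
Libraries (columns) with a 5′ peak (within 1 kb) at each β-globin cluster gene (rows, in chromosome order), coloured by antibody and grey where there was none. HBG2, HBG1 and HBBP1 are filled in the same 8 libraries, and HBB in 12.

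The strongest HBB peak had the higher fold in clone B, and γ-globin had it in most of clone TB. In HA replicates 1 to 3 of clone TB the strongest HBB peak had folds of 11.1, 4.46 and 8.00, and in the MYC replicates 6.92, 7.73 and 8.55. In clone B it had 14.8, 24.9 and 10.5 with HA and 10.4, 13.1 and 6.30 with MYC. These HBB peaks were not a single site, and some libraries held up to 3. In clone TB the summit lay 84 to 294 bases inside the gene, except in HA replicate 2 (53 bases upstream). In replicate 1 of clone B it lay 36 (HA) and 45 (MYC) bases upstream. The ratios below therefore do not set γ-globin against a fixed place at HBB. HBG1 was above HBB in 5 of 6 clone TB libraries and below it in both clone B libraries that had both peaks. Over these 8 libraries the log2 ratio of HBG1 to HBB was 0.25 ± 1.22 (SD; exact sign-flip permutation test, p = 0.57, adjusted p = 0.712 over the 5 tests). By clone it was 0.76 ± 0.88 (SD, n = 6) in clone TB and −1.63 (HA) and −0.94 (MYC) in clone B. For HBG2 the mean was 0.84 ± 0.76 in clone TB (SD, n = 6), and the clone B values were −0.84 and −0.60. The clone difference was 2.04 for HBG1 and 1.56 for HBG2. It is given without a test, since both clone B values come from libraries numbered 1 and the 4 clone B libraries without a γ-globin peak have no ratio.

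Some genes elsewhere shared the library pattern of γ-globin. Among the 19860 other protein-coding genes, CPA3 (a mast cell carboxypeptidase) and PTTG1IP2 had a peak in exactly the same 8 libraries (Jaccard index 1.0 over 24 libraries). CSF3 (the cytokine G-CSF), DIRAS1 (a Ras-family GTPase) and ADRA1D (an adrenergic receptor) followed with the same 8 libraries and 1 more (Jaccard index 0.889), which was a clone B replicate 2 library each time. At ADRA1D the peaks were not a single site. In clone TB, HA replicate 1 had its peak at 4242519 to 4242668, and MYC replicate 1 at 4221563 to 4221631 and 4222593 to 4222687. Of the merged regions, 54 had the set of libraries of HBG1, and 3 of these lay in the globin cluster, at HBG1, HBG2 and HBBP1.

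The genes of known γ-globin regulators mostly had peaks of both kinds of library. Of 40 such genes, 39 had a peak in at least 1 BCL11A-directed and 35 in at least 1 TR4-directed library, and 10 had one in all 18. Over all genes tested the shares were 72.5%, 57.7% and 9.36%. The median regulator had a peak in 9 BCL11A-directed and 7 TR4-directed libraries, and the median of all genes was 5 and 1. Called as higher in BCL11A-directed libraries were 5 (KDM1A, TAL1, LMO2, DNMT1 and GATA1), and 0 were called higher in TR4-directed ones, against 5.52% and 0.302% of all genes. With lists of equal length 5 were called higher in BCL11A-directed libraries (ATF4, GATA1, LMO2, MBD3 and ZNF410) and 2 in TR4-directed ones (EHMT1 and NR2C1), against 3.19% and 4.76% of all genes. The difference in library count (BCL11A-directed minus TR4-directed) had a median of 1.5 over the list and of 1 over all genes. With lists of equal length both medians were 0. At that length 31 of the 40 genes had a peak in at least 1 BCL11A-directed and 26 in at least 1 TR4-directed library, and the shares over all genes were not counted. NR2C2 and ZBTB7A, a γ-globin repressor, had a peak in 9 of 9 libraries of each kind. At BCL11A itself the counts were 9 and 6 (adjusted p = 0.718, Fisher's exact test).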

How the data were processed

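CUT&RUN was analysed in 24 libraries of 3 HUDEP-2 clones. The submitters' processing notes name MACS2 2.1.4, SAMtools, Picard, Bowtie2 and Trimmomatic, with build GRCh38, and no source used here gives their roles. Peaks were called library by library, since each library has its own list. In these lists the authors deposited each peak's fold over background, a linear ratio. They also deposited its −log10 q and its summit as an offset from the peak start.

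Gene records came from RefSeq (GRCh38.p14). Of its protein-coding records, 171 that were positioned on unplaced or patch sequences were left out, and 19862 were tested. The table holds no strand, and the strand of the globin genes is textbook knowledge. The planned motif search was not run, so no promoter sequence is shown. A gene counted as having a peak where at least 1 base overlapped its record with 2 kb either side. Library counts were compared with Fisher's exact test, adjusted by Benjamini-Hochberg at 0.05 (Python 3.11.15, scipy 1.17.1). On simulated presence over 19862 genes for the comparison of 9 against 9, 184 of 200 changed genes were recovered, 0 in the wrong direction, and 2 unchanged genes were called. The changed genes were simulated near full presence on 1 side and near absence on the other, with libraries drawn independently. This recovery does not tell how often a partial split, such as that of HBG1 and HBG2, would be called.

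For 5′ ends the peak with the highest −log10 q within 1 kb was used. Named genes are HBG1, HBG2, the other cluster genes, 3 regulators, and the 5 genes with the highest Jaccard index with HBG1, ties going to the shorter window. The regulators that were called are named because they are few. Members and lists were chosen with earlier results of these data known. Replicate numbers were taken to pair libraries where same-numbered deviations from group means correlated above 0.1 in all 3 pairs. This held between clones TB and B for HA (0.101 to 0.285) and for HA and MYC together (0.138 to 0.325), and between HA and MYC within clone B (0.2 to 0.456), from the data and not from the labels. By a stricter check, all libraries correlated best with their own number in only 2 of 21 pairs of groups.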

Additional observations from a re-analysis of the deposited data

Results flagged for a closer look

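The summit of the HBG2 peak in MYC replicate 1 of clone B lay at 56 bases inside the gene, far from the other 7 libraries, whose summits lay 59 to 46 bases upstream. Its gap to the nearest summit was 0.887 of the whole range (Dixon's criterion for 8 values). Of 11 sets of values examined in this way 1 was singled out, and chance singles out about 1 in 20.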

How the results depend on the processing

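No comparison of library counts at HBG1 or HBG2 passed the adjusted threshold under any alternative that was run, and none reversed. For BCL11A-directed against TR4-directed libraries, HBG1 came nearest with 5 kb either side (8 against 1 libraries, adjusted p = 0.0513, Fisher's exact test), and differed by 3 to 7 libraries over 28 alternatives (adjusted p 0.0513 to 1.0). That wider window takes in the BGLT3 peaks, so its count is not of HBG1 alone. HBG2 with 5 kb either side stayed at 5 against 0 libraries (adjusted p = 0.203, Fisher's exact test). The number of genes called, 1157, was 1375 to 1741 with 1 library left out, highest without HA replicate 3 of clone B, 662 with the replicate block and 693 without both clone B libraries numbered 1, which was chosen after seeing the data, as was counting same-numbered clone B libraries once (1058). With equal list lengths it was 1578, of which 633 were higher in BCL11A-directed libraries and 945 lower, against 1097 and 60 as reported. The replicate numbers of that comparison did not pair the libraries (correlations 0.049, 0.141 and 0.201), and the block changed no call at either gene, there or between clones TB and B. With 1 library left out, the HA minus MYC summit difference at HBG1 in clone TB ranged from −20.3 to 23 bases and changed sign without HA replicate 2, HA replicate 3 or MYC replicate 1. The HBG1 minus HBG2 summit difference ranged from −40.3 to −21.9 bases and had p = 0.0625 (exact permutation test) without any 1 of 6 of its 8 libraries. The log2 ratio of HBG1 to HBB ranged from −0.024 to 0.52, and changed sign without HA replicate 2 of clone TB. Depth is unknown, so a missing peak shows that none was called, not that binding is absent.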
